A study of Mus musculus with 10 samples.

Results

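The genes described here are 59 mouse genes of the cell division programme: 29 that work in DNA replication and entry into S phase, and 30 that work in mitosis, counted from Mki67 on. They were chosen by name, with no measured value in the rule, though with earlier results of these data known. Each of the 59 symbols was found once among the 55385 genes of the deposited count table. All 59 passed the filter on low counts and are among the 15064 genes tested. RNA was sequenced from 10 samples of a mouse ovarian tumour line that carries mutations in Arid1a and Pik3ca, whose name is spelled APV245 in the titles of the samples and APC245 in the design text. In 5 samples the label is IL6 shRNA1 with the genotype IL6 knockdown, that is, a short hairpin RNA against the transcript of the cytokine interleukin-6. The other 5 carry the control label, a non-mammalian hairpin in the pLKO.1-puro vector with the genotype WT (control shRNA). All 10 share the parental line, the batch and the label of no treatment. The sample labels describe cells kept in DMEM with serum, while the design text describes tumours grown under the skin. Neither gives the animals' strain or age, or says whether the 5 samples of a group came from separate tumours or cultures. Leukocyte marker transcripts were present in every library, as given below. The levels given here therefore cannot be read as those of cultured tumour cells alone. The knockdown rests on 1 hairpin, and p-values measure the spread between these samples, which may be technical.

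Cells prepare to copy their DNA in G1, when the origin recognition complex, Cdc6 and Cdt1 load the ring of Mcm2 to Mcm7 onto origins. Cyclin E with its kinase, Mcm10, Cdc45 and the GINS complex turn the ring into a moving helicase, and DNA polymerases then copy both strands with the sliding clamp Pcna. Many of these genes are switched on by E2F transcription factors at the G1 to S transition, and most mitosis genes peak later, in G2 and M, under the DREAM and MuvB complexes with B-Myb and FoxM1, through promoter elements called CHR and CCAAT. In bulk tumour RNA the summed level of both sets is widely read as the share of cycling cells. Fewer cycling cells and less RNA per cycling cell cannot be told apart in such data.

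The promoters of both sets carried different motifs, and 4 of them are shown because their genes return in the results. RefSeq promoter windows on GRCm38.p6, each from 250 bases before to 50 bases after a start site, were available for 50 of the 59 genes, 24 of replication and 26 of mitosis. An E2F-type motif (TTTGGCGC, TTTCCCGC, TTTCGCGC or TTTGCCGC, on either strand) was found in 11 of 24 replication promoters (45.8%) and in 1 of 26 mitosis promoters (3.85%), that of Cdk1, against 2.605% of the 27025 genes in the promoter table. A CHR motif (TTTGAA or TTCGAA, on either strand) was found in 5 of 24 replication promoters (20.8%), in 22 of 26 mitosis promoters (84.6%) and in 21.7% of all. The CCAAT box, read on both strands, stood in 15 of 24 replication promoters (62.5%), 21 of 26 mitosis promoters (80.8%) and 41.1% of all. A gene with several listed starts counted once if any window matched, and matches may overlap, within a motif as in Mcm6 or between motifs. These matches are letters in a window and do not show binding. In the sequences that follow, capitals mark E2F-type letters in Mcm3 and Mcm6 and CHR letters in Kif11 and Ccnb2, 5′ to 3′ on the strand of the gene.
Mcm3 promoter, chr1:20820263-20820562, minus strand: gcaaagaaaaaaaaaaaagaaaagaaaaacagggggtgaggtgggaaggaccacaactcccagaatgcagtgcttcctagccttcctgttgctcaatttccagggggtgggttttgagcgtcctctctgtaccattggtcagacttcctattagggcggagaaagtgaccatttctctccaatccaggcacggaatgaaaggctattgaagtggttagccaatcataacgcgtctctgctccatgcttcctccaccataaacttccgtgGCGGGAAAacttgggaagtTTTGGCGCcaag
Mcm6 promoter, chr1:128359656-128359955, minus strand: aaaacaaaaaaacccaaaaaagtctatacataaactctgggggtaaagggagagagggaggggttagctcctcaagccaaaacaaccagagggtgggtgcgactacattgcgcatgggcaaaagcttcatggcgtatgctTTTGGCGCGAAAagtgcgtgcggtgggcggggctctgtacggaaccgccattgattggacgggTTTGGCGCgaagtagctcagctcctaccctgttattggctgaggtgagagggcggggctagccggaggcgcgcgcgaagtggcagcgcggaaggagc
Kif11 promoter, chr19:37376132-37376431, plus strand: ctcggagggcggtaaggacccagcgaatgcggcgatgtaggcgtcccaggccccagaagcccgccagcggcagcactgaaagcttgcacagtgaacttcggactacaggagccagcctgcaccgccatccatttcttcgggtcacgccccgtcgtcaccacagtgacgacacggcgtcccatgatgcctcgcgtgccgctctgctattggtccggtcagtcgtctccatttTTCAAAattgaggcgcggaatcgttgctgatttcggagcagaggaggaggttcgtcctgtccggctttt
Ccnb2 promoter, chr9:70421505-70421804, minus strand: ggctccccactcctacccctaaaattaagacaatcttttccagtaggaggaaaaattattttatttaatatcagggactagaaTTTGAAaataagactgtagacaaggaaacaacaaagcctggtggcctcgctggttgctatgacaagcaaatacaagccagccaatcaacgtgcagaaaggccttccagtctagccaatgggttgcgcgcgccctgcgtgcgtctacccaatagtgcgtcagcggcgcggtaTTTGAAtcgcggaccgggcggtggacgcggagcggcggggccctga

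Mcm3 holds 2 E2F-type matches, both after the start site, and Mcm6 holds 3 upstream of it, of which the first and the second overlap. Kif11 holds 1 CHR match that ends 14 bases before the start, and Ccnb2 holds 2, of which 1 lies just after it. Mcm3 and Mcm6 are also the members whose level was higher in the libraries labelled IL6 shRNA1 with an unadjusted p under 0.05, and both lie on chromosome 1. Of the other replication genes with the motif, Pola1 had a positive fold change and Mcm5, Mcm7, Cdc6, Cdt1, Lig1, Pold1, Rfc3 and Uhrf1 had negative ones, and none of these was called.

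Before the members, the labels were checked. The targeted gene, Il6, showed no fall under its own label, with 1.07, 1.83, 2.18, 1.80 and 1.75 CPM (counts scaled to library size with TMM factors) in the group labelled IL6 shRNA1, against 1.61, 0.438, 2.06, 1.34 and 0.830 CPM in the control libraries. The means were 1.73 ± 0.41 and 1.26 ± 0.64 CPM (SD, n = 5 each), on 9 to 48 counts per library, and an exact two-sided permutation test over the 252 regroupings gave p = 0.21. The log2 fold change was 0.44 ± 0.36 (SE; edgeR adjusted p = 0.44), with a 95% interval from -0.36 to 1.24, so groups are named by label throughout. With a leukocyte marker score as a covariate, an alternative added after the data were seen, that log2 fold change was -0.67 (edgeR adjusted p = 0.44). Whether the labels of the groups are exchanged was not tested, and an exchange would turn the sign of every fold change given here. How much of the Il6 count came from cells other than the tumour line was not tested. Libraries held 17905397 to 19934278 counts in the group labelled IL6 shRNA1 and 18224751 to 22682346 in control. The quasi-likelihood test of edgeR with Benjamini-Hochberg adjustment over the 15064 genes called 1775 of them at an adjusted p under 0.05, which is 11.8%, and an unadjusted p under 0.05 was reached by 31.2%. Called higher were 5.62% and called lower 6.16%. Marker transcripts of several cell types were also counted. Among leukocyte markers, Cd74 had means of 2238 CPM under the IL6 shRNA1 label and 858 CPM in control, and C1qa 467 and 204 CPM. Acta1, a muscle marker, ran from 22.2 to 3392 CPM in the libraries labelled IL6 shRNA1 and from 8.90 to 519 CPM in control. The markers Cd79a, Ms4a1, Adipoq, Plin1 and Krt5 did not pass the filter. Which cells these transcripts came from was not tested. The epithelial and mesothelial list was drawn up for the tumour line, and whether its transcripts came from that line was not tested. Of 23 tested leukocyte markers (25 listed), 12 were called higher and 0 lower, and their summed level was 3226.5 to 6532 CPM (median 5547) in the libraries labelled IL6 shRNA1 and 1244.7 to 3767 CPM (median 2230.5) in control. Of the endothelial markers 0 of 8 were called (4 with an unadjusted p under 0.05, all higher), of the fibroblast and pericyte markers 2 of 9 (Dcn and Lum, both lower), of the muscle, fat, skin and blood markers 0 of 6 tested (2 with an unadjusted p under 0.05, both higher; all 6 positive, with a median log2 fold change of 2.19), and of the epithelial and mesothelial markers 1 of 9 tested (Upk3b, higher). The muscle, fat, skin and blood list summed to 129 to 7313 CPM (median 1253) in the libraries labelled IL6 shRNA1 and 24.6 to 858 CPM (median 211) in control. The endothelial list summed to 204 to 384 CPM in the libraries labelled IL6 shRNA1 and 153 to 264 CPM in control. The epithelial and mesothelial list summed to 344.7 to 388 CPM in the libraries labelled IL6 shRNA1 and 141 to 371 CPM in control, and of its genes Pax8 did not pass the filter. No listed marker was at 0 in all libraries.

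Most genes of the division programme had small differences between the groups. Of the 29 replication genes 1 was called, Mcm3, which was 19.03% higher in the libraries labelled IL6 shRNA1, and of the 30 mitosis genes 1 was called, Kif2c, which was 22.3% lower. The other 28 replication and 29 mitosis genes did not pass the test, among them Mki67, Top2a, Pcna and Cdk1. Fold changes were small and mostly negative: 23 of 29 replication genes had a negative log2 fold change, with a median of -0.12, and 27 of 30 mitosis genes, with a median of -0.19, beside 52.1% negative and a median of -0.01 over all genes tested. For 56 of the 59 genes the 95% interval of the fold change lay within a change of 1.5-fold in either direction, which held for 8501 of the 15064 genes tested. The called share, 2 of 59, is set beside the 11.8% of all genes, and the groups did not overlap for 2 of 59 members against 10.9% of all genes. Per gene length, as FPKM (counts scaled by gene length and library total), mean levels over the 10 libraries ran from 0.169 for Pola1 and 1.93 for Fen1 to 49.2 for Cdc20, 56.4 for Pcna and 91.3 for Rrm2. Unadjusted p-values under 0.05 were reached by 10 replication genes (2 higher and 8 lower) and by 7 mitosis genes (all lower), beside the 31.2% of all genes.

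**Figure D1:**
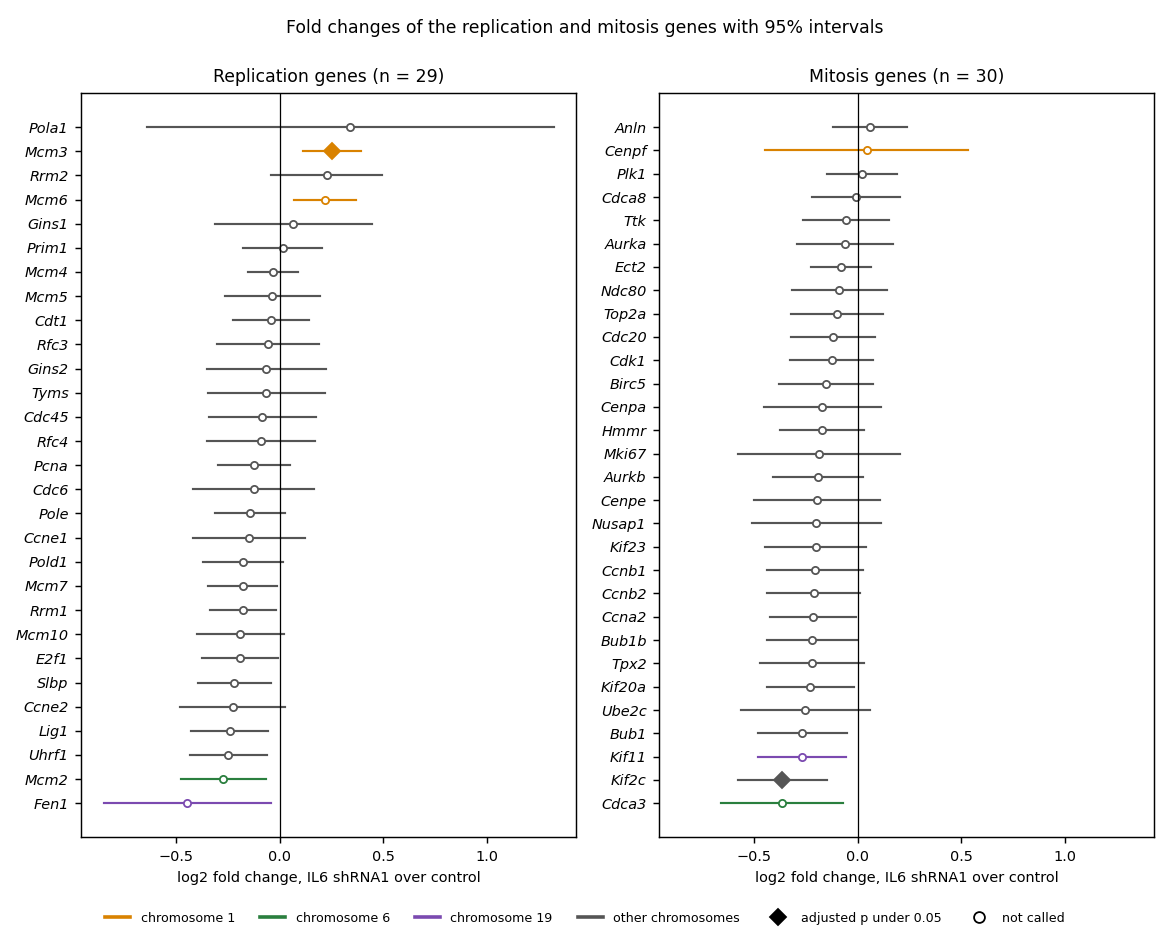
Log2 fold change (IL6 shRNA1 over control) of the 29 replication genes and the 30 mitosis genes, sorted by value, with 95% intervals derived from the edgeR fit. Filled diamonds have an adjusted p under 0.05 and colours mark chromosomes 1, 6 and 19. Most points lie left of 0, Mcm3 on chromosome 1 and Kif2c on chromosome 4 are the filled points, and the interval of Pola1 is the widest.

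Licensing genes held the only call among the replication genes. Mcm3 (ENSMUSG00000041859.10, chromosome 1, 20802968 to 20820312 on GRCm38) encodes a subunit of the hexameric helicase core and had 98.4, 109, 101, 109 and 94.7 CPM across the libraries labelled IL6 shRNA1, against 83.2, 91.1, 87.3, 80.6 and 89.1 CPM in the control libraries. Every library labelled IL6 shRNA1 lay above every control library. The log2 fold change was 0.25 ± 0.06 (SE; 95% interval 0.11 to 0.39, edgeR adjusted p = 0.029). Without library 2 or library 4 of the group labelled IL6 shRNA1, or without control library 4, the adjusted p was 0.062, 0.0504 or 0.056. Mcm6 (ENSMUSG00000026355.11, chromosome 1, 128331590 to 128359664), another subunit of the same ring, had 152.7, 162.5, 169.3, 170.2 and 135.8 CPM across the libraries labelled IL6 shRNA1, against 135.6, 139.9, 138.3, 130.5 and 135.1 CPM in the control libraries. Library 5 of the group labelled IL6 shRNA1 lay inside the control range and the other 4 lay above all controls, with a log2 fold change of 0.22 ± 0.07 (SE; edgeR adjusted p = 0.062). Without that library the edgeR adjusted p was 0.026, and without library 1 of that group 0.036. Mcm2 (ENSMUSG00000002870.8, chromosome 6, 88883474 to 88898780), also a subunit of the ring, went the other way. It had 79.2, 105.6, 96.7, 106.6 and 82.0 CPM across the libraries labelled IL6 shRNA1, against 111.9, 123.3, 114.2, 106.3 and 111.8 CPM in the control libraries. Libraries 1 and 5 labelled IL6 shRNA1 were the lowest, and library 4 of that group alone reached the control range. Its log2 fold change was -0.27 ± 0.09 (SE), with an adjusted p of 0.077 in edgeR. Of the 8 licensing genes 6 had negative fold changes, with a median of -0.04. The other subunits were at -0.18 ± 0.08 for Mcm7, -0.04 ± 0.10 for Mcm5 and -0.03 ± 0.06 for Mcm4 (log2 fold change, SE). The loaders Cdc6 and Cdt1 were at -0.13 ± 0.13 and -0.04 ± 0.08.

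**Figure D2:**
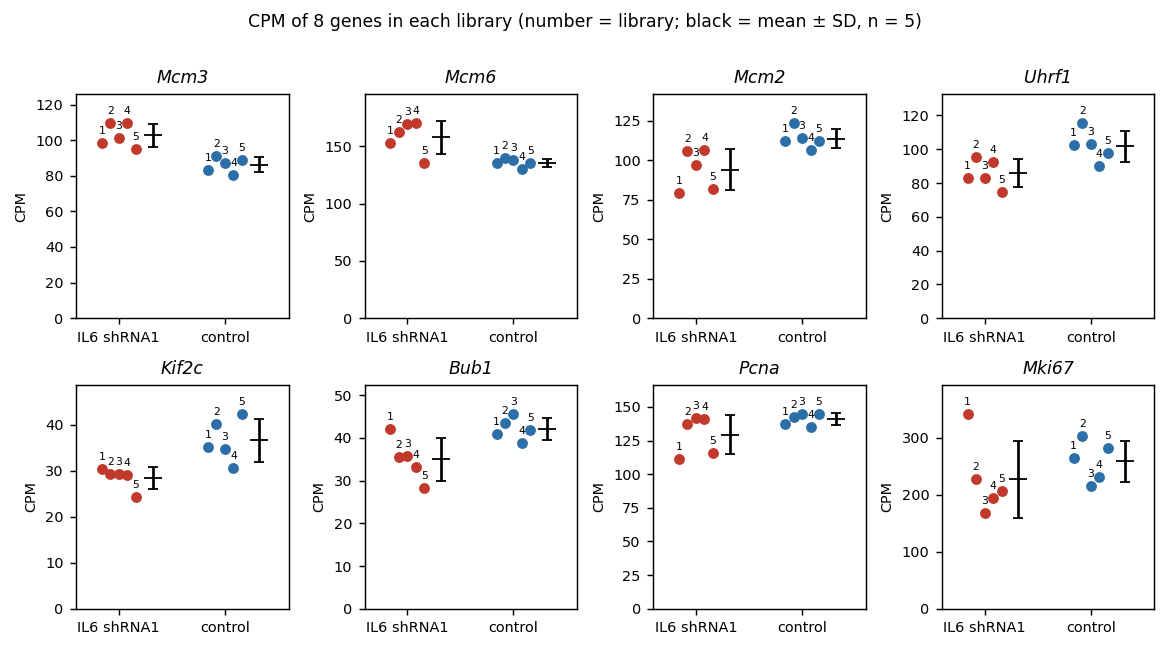
Level in CPM of Mcm3, Mcm6, Mcm2, Uhrf1, Kif2c, Bub1, Pcna and Mki67 in each library, numbered within its group, with the mean ± SD of 5 libraries in black; each axis starts at 0. The groups separate for Mcm3 and Kif2c, while library 1 labelled IL6 shRNA1 is the highest of all for Mki67 and the lowest of all for Pcna.

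Beyond licensing, no gene of the replication fork was called, and Lig1 and Fen1 had unadjusted p-values under 0.05. The helicase activators Mcm10, Gins1, Gins2 and Cdc45 had log2 fold changes between -0.19 (Mcm10) and 0.06 (Gins1), with all 4 intervals spanning 0. About 67.3% of the exon bases of Gins2 lie on bases also annotated to another gene, Gse1, on the opposite strand. Since no strand setting is given in the sources used here, the count of Gins2 is uncertain. Pcna encodes the sliding clamp, the ring that tethers polymerases to DNA, and had 111.5, 137.5, 141.6, 140.7 and 115.6 CPM across the libraries labelled IL6 shRNA1, against 137.4, 142.7, 144.9, 134.8 and 144.6 CPM in the control libraries. Libraries 1 and 5 labelled IL6 shRNA1 lay below every control and the other 3 within the control range (log2 fold change -0.12 ± 0.08 SE, edgeR adjusted p = 0.31). The clamp loader subunits Rfc3 and Rfc4 were at -0.06 ± 0.11 and -0.09 ± 0.12. Among the polymerases and primase, Pold1, Pole and Prim1 were at -0.18 ± 0.09, -0.14 ± 0.08 and 0.01 ± 0.09 on the log2 scale. Pola1, the catalytic subunit of the priming polymerase alpha and on chromosome X, was counted at only 12 to 73 reads per library, and its log2 fold change of 0.34 ± 0.45 had an interval from -0.64 to 1.32. Lig1, the ligase that seals Okazaki fragments, had 68.5, 73.0, 65.0, 66.3 and 60.7 CPM across the libraries labelled IL6 shRNA1, against 79.0, 88.5, 72.6, 68.1 and 86.1 CPM in the control libraries. Libraries 3, 4 and 5 labelled IL6 shRNA1 lay below every control, and controls 3 and 4 fell into the range of the other group (log2 fold change -0.24 ± 0.08 SE, edgeR adjusted p = 0.081). Without control library 4 the edgeR adjusted p of Lig1 was 0.046. Fen1, the nuclease that trims the same fragments, had the most negative value of the set (-0.45 ± 0.18, edgeR adjusted p = 0.13) on 56 to 148 counts. Of its exon bases 84.2% also belong to other annotated genes, chiefly Gm10143, so its count is uncertain.

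The genes that supply nucleotides and histones to the fork gave values of both signs. Rrm2, the regulated subunit of ribonucleotide reductase, was the most abundant member per transcript length, at 98.8 ± 14.7 FPKM in the libraries labelled IL6 shRNA1 and 83.8 ± 7.43 FPKM in control (SD, n = 5 each). It had 299.6, 315, 294, 224 and 236 CPM across the libraries labelled IL6 shRNA1, against 194, 263, 219, 222 and 272 CPM in the control libraries. Libraries 1, 2 and 3 labelled IL6 shRNA1 were above all controls and the other 2 within their range (log2 fold change 0.23 ± 0.12 SE, edgeR adjusted p = 0.23). Its partner Rrm1 was at -0.18 ± 0.07 and thymidylate synthase, Tyms, at -0.06 ± 0.13. Uhrf1 directs maintenance methylation to newly copied DNA and had 83.2, 95.2, 82.9, 92.5 and 74.9 CPM across the libraries labelled IL6 shRNA1, against 103, 115, 103, 90.3 and 97.8 CPM in the control libraries. Only control library 4 came down into the range of the group labelled IL6 shRNA1. The log2 fold change was -0.25 ± 0.08 (SE; edgeR adjusted p = 0.076). Slbp binds the stem-loop of replication-dependent histone mRNAs and had 43.3, 45.6, 49.5, 49.9 and 38.5 CPM across the libraries labelled IL6 shRNA1, against 49.4, 55.9, 55.5, 51.7 and 51.5 CPM in the control libraries. Here control library 1 alone fell under the 2 highest libraries labelled IL6 shRNA1 (log2 fold change -0.22 ± 0.08 SE, edgeR adjusted p = 0.093). The genes for entry into S phase, Ccne1, Ccne2 and E2f1, were at -0.15 ± 0.12, -0.23 ± 0.11 and -0.19 ± 0.08. None of the 3 passed the adjusted threshold, and E2f1 had an unadjusted p of 0.041.

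Among the mitosis genes the kinesins held the only call. Kif2c (ENSMUSG00000028678.13, chromosome 4, 117159639 to 117182639 on GRCm38) encodes MCAK, a kinesin that depolymerises microtubules at centromeres, and had 30.5, 29.2, 29.3, 29.1 and 24.2 CPM across the libraries labelled IL6 shRNA1, against 35.1, 40.1, 34.8, 30.7 and 42.4 CPM in the control libraries. The groups did not overlap, with 30.5 CPM as the highest value labelled IL6 shRNA1 and 30.7 CPM as the lowest control. Its log2 fold change was -0.36 ± 0.10 (SE; 95% interval -0.58 to -0.15, edgeR adjusted p = 0.037). The call was lost without any of libraries 2 to 5 labelled IL6 shRNA1 and without control library 2, 3 or 5, with adjusted p-values from 0.053 to 0.088. Kif11, the motor Eg5 that pushes spindle poles apart, had 111.9, 102.8, 89.6, 91.03 and 84.7 CPM across the libraries labelled IL6 shRNA1, against 111.5, 126.3, 111.4, 99.2 and 130.2 CPM in the control libraries. Libraries 3 to 5 labelled IL6 shRNA1 lay below every control, while library 1 lay above 3 of the controls (log2 fold change -0.27 ± 0.10 SE, edgeR adjusted p = 0.089). Kif20a, a kinesin of the central spindle, had 51.9, 47.4, 48.1, 47.7 and 41.3 CPM across the libraries labelled IL6 shRNA1, against 54.9, 66.1, 54.2, 45.9 and 55.6 CPM in the control libraries. Control library 4 alone entered the lower range, and the log2 fold change was -0.23 ± 0.10 (SE; edgeR adjusted p = 0.13). About 29.3% of the exon bases of Kif20a are shared with Cdc23 on the other strand. Kif23, a kinesin of cytokinesis, was at -0.20 ± 0.11.

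Mki67 encodes the Ki-67 protein that is stained to count cycling cells, and it did not pass the test. It had 342, 228, 168, 194 and 207 CPM across the libraries labelled IL6 shRNA1, against 264, 303, 215, 232 and 282 CPM in the control libraries. Library 1 labelled IL6 shRNA1 was the highest of all 10, while libraries 3, 4 and 5 of that group lay below every control (log2 fold change -0.19 ± 0.18 SE, edgeR adjusted p = 0.51). Top2a, the topoisomerase that untangles sister chromatids, had 267, 239, 198, 216 and 212 CPM across the libraries labelled IL6 shRNA1, against 243, 274, 225, 206 and 266 CPM in the control libraries. The 2 groups overlapped over most of their range, at -0.10 ± 0.10 (log2 fold change, SE; edgeR adjusted p = 0.54). All 3 cyclins and Cdk1 had negative fold changes and none was called. Ccnb2, a partner of Cdk1, had 50.8, 51.3, 55.5, 52.7 and 45.7 CPM across the libraries labelled IL6 shRNA1, against 58.0, 73.0, 59.6, 47.8 and 58.0 CPM in the control libraries. Ccna2, which acts in S phase and in G2, had 106.8, 107.3, 104.7, 104.7 and 78.5 CPM across the libraries labelled IL6 shRNA1, against 111.0, 123.6, 124.6, 103.5 and 120.4 CPM in the control libraries. In both, control library 4 fell among the other group and the remaining 4 controls lay above it. The log2 fold changes were -0.21 ± 0.10 and -0.22 ± 0.09 (SE), with edgeR adjusted p-values of 0.18 and 0.14. Cdk1, the kinase itself, was at -0.13 ± 0.09, and Ccnb1 at -0.21 ± 0.11.

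Checkpoint and destruction genes showed the same small negative values. Bub1, a kinase of the spindle checkpoint at kinetochores, had 42.1, 35.6, 35.8, 33.3 and 28.3 CPM across the libraries labelled IL6 shRNA1, against 40.9, 43.4, 45.7, 38.9 and 41.8 CPM in the control libraries. Libraries 2 to 5 labelled IL6 shRNA1 lay below every control, and library 1 lay inside their range (log2 fold change -0.27 ± 0.10 SE, edgeR adjusted p = 0.093). Without library 1 the adjusted p of Bub1 was 0.023 and that of Kif11 0.037. Bub1b and Ttk were at -0.22 ± 0.10 and -0.06 ± 0.10. Cdc20, the activator of the anaphase-promoting complex, had 79.3, 96.5, 95.3, 95.99 and 72.4 CPM across the libraries labelled IL6 shRNA1, against 93.1, 101, 103, 87.4 and 92.1 CPM in the control libraries. Libraries 1 and 5 labelled IL6 shRNA1 lay below all controls and the other 3 inside their range, at -0.12 ± 0.09 (log2 fold change, SE; edgeR adjusted p = 0.41). Cdca3, an adaptor that sends Wee1 to degradation, is on chromosome 6 and had 41.4, 50.1, 52.9, 46.3 and 32.9 CPM across the libraries labelled IL6 shRNA1, against 56.3, 68.2, 58.2, 46.1 and 59.5 CPM in the control libraries. Control library 4 was again the only control among the values of the other group, and the log2 fold change was -0.37 ± 0.13 (SE; edgeR adjusted p = 0.093). Ube2c, the ubiquitin-conjugating enzyme of the same complex, was at -0.25 ± 0.14, with 22.8% of its exon bases shared with Tnnc2. The mitotic kinases and the chromosomal passenger complex lay closer to 0: Plk1 was at 0.02 ± 0.08, Aurka at -0.06 ± 0.11, Cdca8 at -0.01 ± 0.10, Birc5 at -0.15 ± 0.10 and Aurkb at -0.19 ± 0.10, and all 5 intervals spanned 0. At centromeres, Cenpa, Cenpe and Ndc80 had values from -0.19 (Cenpe) to -0.09 (Ndc80), and Cenpf, on chromosome 1, had 0.04 ± 0.22. The spindle genes Tpx2, Nusap1 and Hmmr lay between -0.22 and -0.17, and the cytokinesis genes Anln and Ect2 at 0.06 ± 0.08 and -0.08 ± 0.07.

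For the Mcm2 to Mcm7 ring the same counts were also expressed as a balance of transcripts. The subunits sit in the helicase in equal numbers, so each was expressed as a percent of the 6 summed FPKM values of its library. Mcm3 made up 18.1 ± 0.72% in the libraries labelled IL6 shRNA1 and 15.4 ± 0.47% in control, and Mcm6 made up 22.4 ± 0.80% and 19.5 ± 0.31% (SD, n = 5 each). Mcm2 stood at 8.90 ± 0.52% in the libraries labelled IL6 shRNA1 and 10.9 ± 0.27% in control, and Mcm7 at 14.8 ± 0.60% and 16.9 ± 0.67%. Mcm4 (16.7 ± 0.78% and 17.3 ± 0.70%) and Mcm5 (19.1 ± 1.52% and 19.98 ± 0.92%) differed by less than 1 SD between the groups. Mcm3 and Mcm6, the subunits on chromosome 1, together took 42.2, 39.6, 40.0, 40.2 and 40.4% in the libraries labelled IL6 shRNA1, against 34.4, 34.8, 34.3, 35.3 and 35.8% in control. The lowest library labelled IL6 shRNA1 lay above the highest control. These shares sum to a whole, so a higher share of 1 subunit lowers the others, and no test was run on them. They restate the counts behind the fold changes above, where Mcm3 and Mcm6 were already the higher subunits. The separation of their joint share is therefore no independent result.

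**Figure D3:**
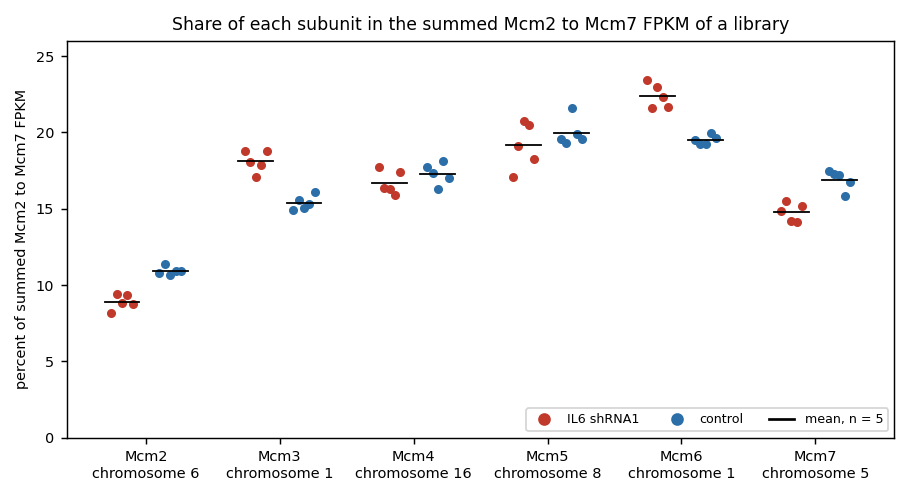
Share of each subunit in the summed Mcm2 to Mcm7 FPKM of a library in percent, with 5 libraries labelled IL6 shRNA1 in red, 5 control libraries in blue, the group mean as a black line and the chromosome under each name. Mcm3 and Mcm6 are higher in all libraries labelled IL6 shRNA1, Mcm2 and Mcm7 are lower, and Mcm4 and Mcm5 overlap.

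Members on chromosomes 1, 6 and 19 had fold changes of the sign of their chromosome. On chromosome 1 the median log2 fold change of the 917 genes tested was 0.32, and 87.8% were positive. Its median level in a library, centred on the mean of all 10, was 0.13 to 0.23 in the group labelled IL6 shRNA1 and -0.16 to -0.14 in control on the log2 scale. Chromosome 6 went the other way, with a median log2 fold change of -0.23 over 797 genes, 70.9% negative, and library medians from -0.17 to -0.06 in the group labelled IL6 shRNA1 and from 0.08 to 0.17 in control. Chromosome 19 had a median of -0.12 over 546 genes, with 66.1% negative. These are the chromosomes with the largest absolute medians of the 20. An exact two-sided permutation test over the 252 regroupings of the libraries was run on the median of each of the 20 chromosomes and on 5 marker scores, and adjusted over these 25 measures. The library medians did not overlap between groups for 4 chromosomes, namely 1, 6, 10 and 15, each with an exact permutation p = 0.0079, the smallest value these samples can give, and adjusted p = 0.0496 (n = 5 each). The median log2 fold changes of chromosomes 10 and 15 were -0.05 and -0.06. Chromosome 19 had p = 0.024 and an adjusted p of 0.085 in the same exact test. The 3 members on chromosome 1, Mcm3, Mcm6 and Cenpf, all had positive fold changes, and 1 was called higher, beside 29.2% of the genes of that chromosome. The 2 on chromosome 6, Mcm2 and Cdca3, both had negative fold changes with an unadjusted p under 0.05 and 0 called, beside 27.1% called lower there. The 2 on chromosome 19, Fen1 and Kif11, did likewise, beside 11.9% called lower. Of the other 52 members 46 were negative, with a median of -0.15, and only Kif2c was called. Mcm3 lay among neighbours of the same sign. Of the 20 tested genes on each side, 31 of 40 were positive, 12 were called higher and their median was 0.29, beside 0.25 for Mcm3 itself. Mcm6 had 31 of 40 positive neighbours with a median of 0.32, and Mcm2 had 35 of 40 negative neighbours with a median of -0.30. Cdca3 had 29 of 40 negative neighbours with a median of -0.27, beside -0.37 for the gene. Cenpf, also on chromosome 1, had 37 of 40 positive neighbours with a median of 0.33, beside only 0.04 for the gene itself. The 40 neighbours of Kif2c had a median of -0.03 beside -0.36 for the gene, and those of Kif11 on chromosome 19 had 0.04 beside -0.27. The part of the chromosome-wide differences in the values of these members was not tested.

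**Figure D4:**
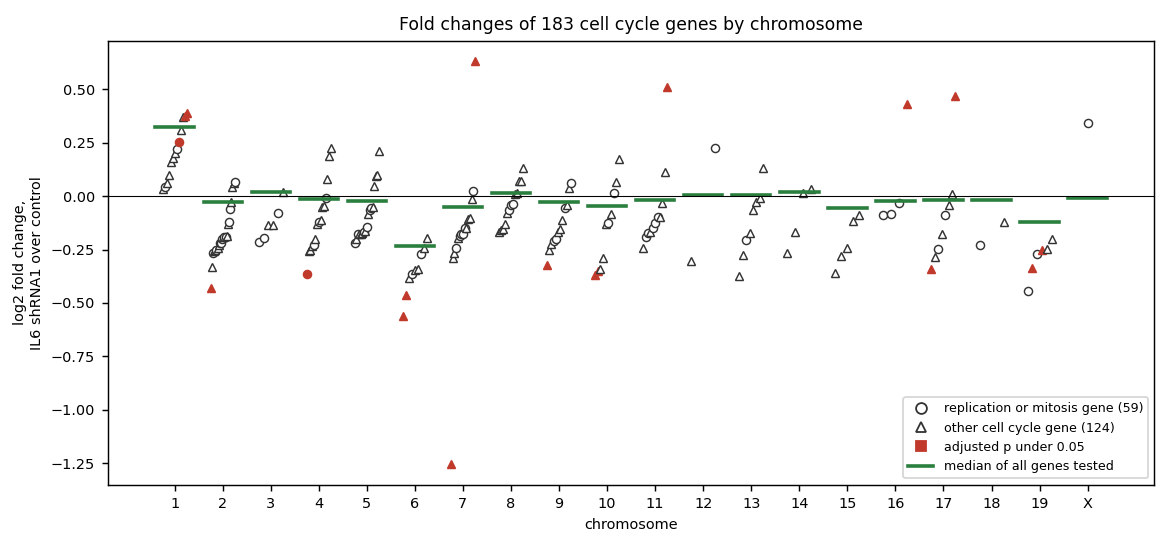
Log2 fold change (IL6 shRNA1 over control) of the 59 replication and mitosis genes (circles) and 124 other cell cycle genes (triangles) by chromosome, sorted within each, with adjusted p under 0.05 in red and the median of all genes tested on that chromosome as a green line. All 13 genes of chromosome 1 lie above 0, beside 87.8% of all genes tested there. All 9 of chromosome 6 and all 6 of chromosome 19 lie below 0, beside 70.9% and 66.1% of all genes tested there.

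Further genes of the same pathways, listed by function, were called in 16 of 124 cases (6 higher and 10 lower), beside 11.8% of all genes. Of 49 other replication genes 2 were called higher and 4 lower, with 37 negative and a median log2 fold change of -0.11. Called higher were Orc2, an origin recognition subunit on chromosome 1 (49.96 ± 5.24 against 38.2 ± 3.24 CPM), and Chaf1b (39.2 ± 2.60 against 29.1 ± 3.33 CPM), a subunit of the histone chaperone CAF-1 (libraries labelled IL6 shRNA1 against control, SD, n = 5 each). Its partner subunit Chaf1a was called lower (39.9 ± 4.04 against 50.5 ± 4.68 CPM), as were the polymerase alpha subunit Pola2 on chromosome 19 (37.3 ± 2.55 against 44.5 ± 2.80 CPM), the fork protection gene Timeless (30.7 ± 1.85 against 39.1 ± 2.95 CPM) and the phosphatase gene Cdc25a (27.8 ± 2.14 against 34.8 ± 1.603 CPM). Both CAF-1 subunits were separated between groups, in opposite directions. Chaf1b had 43.7, 39.0, 38.8, 36.9 and 37.8 CPM across the libraries labelled IL6 shRNA1, against 30.3, 32.8, 30.1, 23.8 and 28.5 CPM in control. Chaf1a had 37.4, 45.3, 39.5, 42.3 and 35.0 CPM across the libraries labelled IL6 shRNA1, against 52.7, 57.5, 49.1, 45.6 and 47.6 CPM in control. Their log2 fold changes were 0.43 ± 0.09 and -0.34 ± 0.09 (SE), with edgeR adjusted p-values of 0.014 and 0.032. The groups did not overlap for either gene. Of 53 other mitosis genes tested (55 listed) 0 were called higher and 4 lower, with 41 negative and a median of -0.18. Those 4 were the condensin gene Ncapd2 (122 ± 16.3 against 179.8 ± 18.8 CPM) and the transcription factor gene Foxm1 (65.6 ± 11.5 against 90.3 ± 6.54 CPM), both on chromosome 6, the passenger complex gene Incenp on chromosome 19 (100.4 ± 5.99 against 127 ± 13.01 CPM) and the kinetochore gene Spc25 (25.2 ± 2.32 against 34.0 ± 4.33 CPM). The calls of Orc2, Chaf1b, Timeless, Cdc25a and Ncapd2 were kept whichever single library was left out. That of Chaf1a was lost without library 3, 4 or 5 labelled IL6 shRNA1 or control library 1, 2, 3 or 5 (edgeR adjusted p 0.053 to 0.084), and that of Pola2 without these or without library 2 labelled IL6 shRNA1 (0.055 to 0.10). That of Foxm1 was lost without library 3 or 5 labelled IL6 shRNA1 or control library 2 or 5 (edgeR adjusted p 0.051 to 0.067), that of Spc25 without library 2 or 5 of either group (0.057 to 0.062), and that of Incenp without library 2, 3, 4 or 5 labelled IL6 shRNA1 or control library 2 or 5 (0.052 to 0.062). Of 183 cell cycle genes tested, 13 lay on chromosome 1, all positive with 3 called, beside 87.8% positive and 29.2% called higher there. The 9 on chromosome 6 were all negative with 2 called, beside 70.9% negative and 27.1% called lower there. The 6 on chromosome 19 were all negative with 2 called, beside 66.1% negative and 11.9% called lower there.

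The genes that gate G1 had values of both signs. Of 22, 4 were called higher and 2 lower, with a median of 0.02, beside 5.62% called higher and 6.16% called lower of all genes. With the leukocyte score as a covariate 0 of them were called, beside 0.398% of all genes. Ccnd1, which encodes cyclin D1, had 56.4, 59.6, 65.0, 73.5 and 69.6 CPM across the libraries labelled IL6 shRNA1, against 53.8, 41.5, 47.8, 35.0 and 30.7 CPM in control. All 5 libraries labelled IL6 shRNA1 exceeded all controls (log2 fold change 0.63 ± 0.14 SE, edgeR adjusted p = 0.020). Without library 5 labelled IL6 shRNA1 or without control library 2 the edgeR adjusted p of Ccnd1 was 0.0501 or 0.0505. Its kinase partner Cdk4 had 212, 227, 241, 228 and 178 CPM across the libraries labelled IL6 shRNA1, against 275, 294, 277, 259.7 and 298 CPM in control. That gene was lower in every library labelled IL6 shRNA1 (log2 fold change -0.37 ± 0.08 SE, edgeR adjusted p = 0.019). Cdkn1a, which encodes the CDK inhibitor p21, had 92.1, 150.0, 147, 121 and 142 CPM across the libraries labelled IL6 shRNA1, against 77.9, 105, 94.6, 107 and 87.3 CPM in control. Library 1 labelled IL6 shRNA1 lay inside the control range and the other 4 above it (log2 fold change 0.47 ± 0.14 SE, edgeR adjusted p = 0.0495). The call of Cdkn1a was lost whichever library other than library 1 labelled IL6 shRNA1 was left out, with edgeR adjusted p-values from 0.054 to 0.12. Ccng1, a p53 target as is Cdkn1a, was higher (233 ± 27.9 against 163 ± 17.4 CPM), as was the MuvB subunit gene Lin9 on chromosome 1 (15.1 ± 0.677 against 11.7 ± 1.58 CPM). Cdkn1c, the gene of the inhibitor p57, was lower at a low level (1.75 ± 0.946 against 4.199 ± 0.761 CPM). The call of Lin9 was lost without library 2, 3, 4 or 5 labelled IL6 shRNA1 or control library 3, 4 or 5 (edgeR adjusted p 0.057 to 0.089), and that of Cdkn1c without library 1, 2, 3 or 4 labelled IL6 shRNA1 or control library 1, 2, 3 or 5 (0.051 to 0.088), while those of Cdk4 and Ccng1 were kept whichever single library was left out.

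The members moved together from library to library, and library 5 labelled IL6 shRNA1 held most of the lowest values among the mitosis genes. The mean centred log2 CPM of the 29 replication genes was -0.17, 0.05, 0.03, 0.05 and -0.20 in libraries 1 to 5 labelled IL6 shRNA1, against 0.03, 0.14, 0.10, -0.10 and 0.07 in the control libraries. That of the 30 mitosis genes was 0.03, 0.00, -0.08, -0.05 and -0.31 in the libraries labelled IL6 shRNA1, against 0.04, 0.25, 0.10, -0.14 and 0.16 in control. Both scores overlapped between the groups. Library 5 labelled IL6 shRNA1 was the lowest of all 10 for 14 of 29 replication genes and 22 of 30 mitosis genes, and control library 2 was the highest for 10 and for 16 of them. Within groups the median pairwise correlation of deviations was 0.62 among replication genes, 0.63 among mitosis genes and 0.50 between the sets, over the 10 libraries, and the genes share each library's depth, scaling and cell makeup. Library 1 labelled IL6 shRNA1 split the sets. It was the lowest library for 8 replication genes and the highest for 3 mitosis genes, Mki67, Cenpf and Cenpe, whose gene models span 10061, 15433 and 8620 bases. In that library the 20 members with models of at least 5000 bases had a median centred level of 0.02, and the 39 shorter members -0.12. All genes tested showed 0.09 and -0.06 for the same split there, and its summed FPKM was the lowest of the 10 at 269723. The part of transcript length in the values of these members was not tested.

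In the libraries at the extremes, the leukocyte and mitosis scores lay on opposite sides of their means. The leukocyte mean centred log2 CPM was -0.09, 0.53, 0.66, 0.56 and 0.69 in the libraries labelled IL6 shRNA1, against 0.17, -1.32, -0.004, -0.49 and -0.71 in control (exact two-sided permutation p = 0.024, n = 5 each, and 0.085 adjusted over the same 25 measures). The epithelial and mesothelial score was also higher under the IL6 shRNA1 label, with a mean of 0.25 against -0.25 in control. Its exact two-sided permutation p was 0.016 (n = 5 each), and 0.079 adjusted over those 25 measures. Of the 9 tested genes in it, 7 had positive fold changes and 2, Wt1 and Krt19, negative ones. Exact permutation tests gave p = 0.063 for endothelium, 0.14 for muscle, fat, skin and blood, and 0.86 for fibroblasts and pericytes. Library 5 labelled IL6 shRNA1 had the highest leukocyte and the lowest mitosis score, and control library 2 the reverse. The same library 5 also had the highest muscle, fat, skin and blood score (3.44) and the highest endothelial score (0.85) of the 10. Control library 5, with the second highest mitosis score, had the lowest of both (-3.45 and -0.80). Other libraries did not follow this. Control library 4, with the second lowest mitosis score (-0.14), was also below 0 for leukocytes (-0.49), muscle, fat, skin and blood (-0.35) and endothelium (-0.11). Control library 1 was above 0 for both mitosis (0.04) and leukocytes (0.17). The part of these markers in the values of the members was not tested. The leukocyte score itself differed between the groups, with a mean of 0.47 under the IL6 shRNA1 label and -0.47 in control. A fit with it as a covariate therefore cannot fully separate leukocyte content from the group label. With the leukocyte score as a covariate, edgeR called 0 of the 59 members (5 had an unadjusted p under 0.05), beside 0.398% of all genes. The median log2 fold change was then -0.10 for the replication genes and -0.03 for the mitosis genes, with 25 of 29 and 18 of 30 negative. In that fit 9 mitosis genes turned positive, Mki67 (0.20), Top2a (0.11), Cdk1, Cdca8, Cenpe, Ndc80, Nusap1, Tpx2 and Ttk, and 2 replication genes, Gins1 and Prim1, turned negative. Without the 3 libraries farthest out on the first principal component, library 5 labelled IL6 shRNA1 and control libraries 2 and 5, edgeR called 0 of the 59 (3 had an unadjusted p under 0.05), beside 1.38% of all genes, and both medians were -0.04, with 19 of 29 replication and 20 of 30 mitosis genes negative. Mcm3 was then at an adjusted p of 0.085 in edgeR and Kif2c at 0.32. The 3 libraries left out held the lowest and the 2 highest mitosis scores, so their omission alone would draw the mitosis median towards 0. DESeq2, by contrast, called 20.1% of all genes and 5 of the 59 members: Mcm3 and Mcm6 higher, and Mcm2, Uhrf1 and Kif2c lower.

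**Figure D5:**
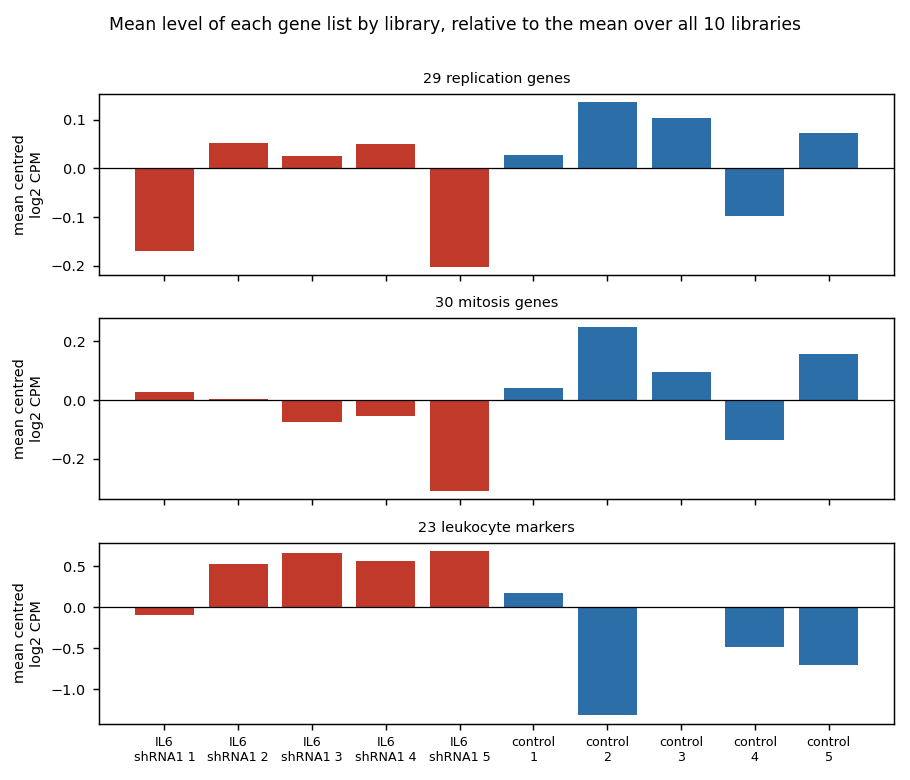
Mean centred log2 CPM of the 29 replication genes, the 30 mitosis genes and 23 leukocyte markers in each library, with libraries labelled IL6 shRNA1 in red and control libraries in blue; 0 is the mean over all 10 libraries and the 3 scales differ. Library 5 labelled IL6 shRNA1 has the lowest mitosis bar and the highest leukocyte bar, and control library 2 the highest mitosis bar and the lowest leukocyte bar.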

How the data were processed

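Total RNA from 10 samples was prepared as NEBNext Ultra II libraries and sequenced, per the labels. The authors deposited raw counts per gene, with no normalization, and FPKM values for the same 55385 genes. Each FPKM equalled the deposited count over a fixed gene length and the column total within a relative deviation of 9.4e-07. Per the submitters' processing notes, reads were handled with STAR 2.7.0f, featureCounts of Subread 1.6.4, Trim Galore 0.6.6, FastQC 0.11.9, R 4.0.4 and SAMtools 1.11 (builds mm10 and GRCm38). No strand setting is stated in the sources used here. The 3 rows without a symbol are no members.

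Counts were fitted in R 4.3.3 with edgeR 4.0.16 (filterByExpr by group with a minimum count of 10, TMM factors, robust glmQLFit, glmQLFTest, group only), on all 10 samples, and p-values were adjusted by the Benjamini-Hochberg method over the 15064 genes tested. Calls are adjusted p-values under 0.05. CPM are TMM-scaled, except summed marker levels, which use column totals. Scores are the mean over genes of log2 CPM (prior count 2) minus the gene's mean over the libraries. The SE of a log2 fold change was derived as its absolute value over the square root of the edgeR F statistic. Intervals are 95%, from this SE and a t quantile. Count-based values cover spread between samples at 17905397 to 22682346 counts per library. The script was tested on simulated data. Alternatives used other scaling factors and filters, DESeq2 1.42.0, limma 3.58.1 (voom, and log2 FPKM with pseudocounts of 1 and 0.1), a replicate block, an adjusted p under 0.01 and the omission of each library. A leukocyte covariate and the omission of 3 libraries were added after the data were seen.

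The members, gene lists, motifs and tests were chosen with earlier results of these data known. The rule names 30 genes of each set while 59 symbols are listed, so 29 were taken as replication and 30, from Mki67 on, as mitosis. Values in every sample are given for called members, Mki67, Pcna and Top2a, and in each set for the 6 members with the smallest p and the 2 with the highest FPKM. Of the other pathway lists, called genes are named.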

Additional observations from a re-analysis of the deposited data

Results flagged for a closer look

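The 59 genes in 2 groups gave 118 groups of 5 libraries. Of these, 6 held a library whose distance to the nearest other exceeded 0.71 of the group's range. Chance passes this limit in about 1 of 20 groups, so 6 of 118 is near the share that chance gives. The genes also moved together from library to library, so the flagged groups are not independent. Library 5 labelled IL6 shRNA1 stood alone in 4 of the 6. It was the highest of its group for Pola1, at 3.86 CPM with the next at 1.44 CPM. The same library was the lowest of its group for Cdk1 (51.3 CPM, next 60.6), Ccna2 (78.5 CPM, next 105) and Kif2c (24.2 CPM, next 29.1). Control library 4 was the lowest of its group for Aurkb (39.5 CPM, next 44.7) and Cenpa (47.2 CPM, next 58.4).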

How the results depend on the processing

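Over all genes the count of calls, 1775 in the reported fit, was 755 with the replicate number as a block, 381 at an adjusted p under 0.01, 3027 with DESeq2, 60 with the leukocyte score as a covariate, 212 without the 3 libraries farthest out, and 864 to 2774 when single libraries were left out. Among the replication genes the 1 call was 2 with RLE factors and with a filter of 1 CPM in 5 libraries, 4 with DESeq2, and 0 with column totals, the replicate block, an adjusted p under 0.01, both FPKM fits (which leave out Pola1), the covariate and the omission of the 3 libraries, and 0 to 2 when single libraries were left out. Among the mitosis genes the 1 call was 0 with no filter on low counts, the replicate block, an adjusted p under 0.01, the covariate and the omission of the 3 libraries, and 0 to 3 when single libraries were left out. In the other pathway lists the 16 calls were 6 with the block, 1 at an adjusted p under 0.01, 25 with DESeq2, 0 with the covariate and without the 3 libraries, and 8 to 20 when single libraries were left out. The calls behind these counts were Mcm3 and Kif2c, each lost where its set's count is 0 (without control library 4 the replication call was Lig1 instead of Mcm3), and the direction of both genes held under all alternatives run. Among the genes whose values are given in every library, the other called pathway genes and Il6, reversed values were the log2 fold changes of Il6 (-0.67), Mki67 (0.20) and Top2a (0.11) with the covariate, and of Top2a (0.034) without the 3 libraries; none was called in the reported fit, and the cause was not tested. Over all 59 members the sign changed for 2 replication and 9 mitosis genes with the covariate, for 8 and 7 without the 3 libraries, and for 0 to 6 and 0 to 2 when single libraries were left out. The replicate numbers did not pair the samples, since the correlation of deviations between same-numbered libraries ran from -0.28 to 0.27 and only number 3 correlated best with its own number. With the block, Mcm3 had an adjusted p of 0.086 and Kif2c of 0.10. Of the other values recomputed for named genes, 673 kept their direction and side of the threshold, 153 lost the threshold and 10 gained it. Depth limits Pola1 (12 to 73 counts), Fen1 (56 to 148) and Il6 (9 to 48).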
